A study of Arabidopsis thaliana with 16 samples.

Results

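The genes described here are 10 transcription factors of Arabidopsis, ethylene response factors of a group that responds to wounding and regulators of the root stem cells. They are the group X ethylene response factors ERF115 (AT5G07310), ERF114 (AT5G61890), ERF113 (AT5G13330, also called RAP2.6L), ERF109 (AT4G34410, also RRTF1) and ERF108 (AT1G43160, also RAP2.6), the AP2-type factors PLT1 (AT3G20840) and PLT2 (AT1G51190), the homeodomain factor WOX5 (AT3G11260), and the GRAS factors SCR (AT3G54220) and SHR (AT4G37650). They were chosen by name, and a value was taken where an assembled locus overlapped the gene's exons on the same strand over at least 50% of the gene or of the locus. Of the 10 genes, 8 had a locus among the 20880 loci of the zeocin table and 7 had one among the 22818 loci of the UV-C table. No locus in either table analysed here was assigned to ERF115 or ERF109, so neither has a value, and PLT1 has a value in the zeocin table only.

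All libraries came from whole seedlings of the wild-type accession Col-0, grown in vitro for 15 days, with no transgene or mutation named. Zeocin, a drug of the bleomycin family that causes double-strand breaks, was given at 200 microg/ml for 3 h, and 5 zeocin libraries were set against 5 libraries of their own mock seedlings. UV-C, which forms pyrimidine dimers, was given at 8 kJ/m2, and 3 UV-C libraries were set against 3 libraries of another mock group. How long after UV-C the seedlings were harvested is not stated in the sources used here, so agent, time and experiment cannot be told apart when the responses are compared.

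Group X ethylene response factors respond quickly to wounding and to the death of neighbouring cells. ERF115 drives division of the cells that replace dead root stem cells, together with the GRAS factor PAT1. ERF113 is needed for tissue reunion in cut stems, ERF114 promotes the outgrowth of axillary buds, ERF109 links jasmonate to auxin synthesis through ASA1 and YUC2, and ERF108 takes part in responses to abscisic acid and stress. In the root tip, PLT1 and PLT2 set stem cell identity in the auxin maximum and WOX5 marks and maintains the quiescent centre. SHR is made in the vascular cylinder and moves outward into the next cell layer, where it activates SCR, and the pair pattern the endodermis and the quiescent centre.

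The sequences upstream of the group X genes that rose after UV-C are shown because these genes rose together. Each is the 250 bases before the annotated gene start on TAIR10 (RefSeq annotation), read 5′ to 3′ on the gene's strand. They are ERF113 at chr5:4271480-4271729 (plus strand), ERF114 at chr5:24853942-24854191 (minus), ERF108 at chr1:16263555-16263804 (plus), and the relatives ABR1 (AT5G64750, also ERF111) at chr5:25891199-25891448 (plus) and ERF112 (AT2G33710) at chr2:14260905-14261154 (minus). Capitals mark matches, on either strand, of the motifs searched, and adjoining matches run together.
ERF113: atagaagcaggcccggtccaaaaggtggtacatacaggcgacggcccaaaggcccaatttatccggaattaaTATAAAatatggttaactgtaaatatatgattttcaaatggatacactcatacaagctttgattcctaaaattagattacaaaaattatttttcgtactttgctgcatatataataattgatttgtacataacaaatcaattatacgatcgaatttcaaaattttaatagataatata
ERF114: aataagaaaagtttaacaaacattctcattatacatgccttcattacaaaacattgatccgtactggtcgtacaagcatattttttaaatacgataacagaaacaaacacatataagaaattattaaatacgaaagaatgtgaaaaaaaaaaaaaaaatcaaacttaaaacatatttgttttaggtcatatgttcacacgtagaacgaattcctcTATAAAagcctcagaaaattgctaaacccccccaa
ERF108: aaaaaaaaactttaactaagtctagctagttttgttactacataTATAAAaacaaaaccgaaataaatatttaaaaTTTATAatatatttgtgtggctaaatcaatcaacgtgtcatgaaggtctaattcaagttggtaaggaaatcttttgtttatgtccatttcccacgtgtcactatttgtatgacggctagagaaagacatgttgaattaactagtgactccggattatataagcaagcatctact
ABR1: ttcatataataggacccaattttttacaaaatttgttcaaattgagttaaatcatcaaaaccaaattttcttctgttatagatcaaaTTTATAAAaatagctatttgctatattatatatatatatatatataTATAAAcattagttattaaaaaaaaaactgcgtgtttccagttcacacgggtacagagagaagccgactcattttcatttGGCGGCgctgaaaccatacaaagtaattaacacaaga
ERF112: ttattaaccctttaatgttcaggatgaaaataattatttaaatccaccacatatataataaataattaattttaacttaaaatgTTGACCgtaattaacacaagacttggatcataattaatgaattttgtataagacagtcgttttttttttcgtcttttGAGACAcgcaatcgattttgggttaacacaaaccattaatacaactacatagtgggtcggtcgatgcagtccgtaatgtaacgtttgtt

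The motifs searched were the SOG1 motif CTTNNNNNNNAAG, the GCC box GCCGCC that ethylene response factors bind, the W-box TTGACC or TTGACT of WRKY factors, the auxin response element TGTCTC and the TATA box TATAAA, the last added after the sequences had been seen. The upstream windows of 27443 protein-coding genes held them in 9.71%, 1.87%, 28.41%, 10.95% and 47.35% of cases, in that order. None of the 10 genes' windows held the SOG1, GCC, W-box or auxin letters. ERF114 and ERF109 had a TATA box at -35 to -30 from the gene start, ERF115 at -49 to -44, and ERF113 only at -178 to -173. In ABR1 a GCC box lay at -37 to -32, and ERF112 had a W-box at -166 to -161 and an auxin element at -89 to -84, with no TATA box. These matches are letters in a window and were not tested as sites.

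Total counts per library ranged from 27973871 to 44536500. BRCA1, a recombination gene used to check the treatment labels, had 3.89 to 4.62 CPM in the 5 zeocin mock libraries and 544 to 641 CPM after zeocin, and it had 4.29 to 5.78 CPM in the UV-C mock libraries and 11.8 to 12.7 CPM after UV-C. Levels are CPM, library-size-scaled counts with TMM factors, and changes were tested with edgeR's quasi-likelihood test, with p-values adjusted over all loci of a table and a threshold of 0.05. The median log2 change of all loci was -0.017 for zeocin and 0.0041 for UV-C. The labels do not say whether each replicate was its own culture, and the p-values speak only of the spread among these libraries, part of which may be technical.

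After 3 h of zeocin PLT1, SCR and SHR were lower, and the ERFs of the set did not pass the test. Libraries of whole seedlings do not show in which cells PLT1, SCR and SHR were lower. Of the 7 genes tested these 3 fell and none rose, where 12.0% of all 19447 loci tested fell and 15.0% rose. Of all zeocin calls 55.6% were rises under TMM scaling and 44.9% under upper quartile scaling, which left the calls of these 7 genes as they were. PLT1 entered the test through its mock libraries, of which 5 were over the filter on low counts against 2 zeocin libraries. WOX5, the eighth gene with a locus, was under the filter.

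ERF114 (locus at chromosome 5, 24852431 to 24853963, minus strand, 2 exons covering 91.4% of the annotated exons) had 0.545, 2.12, 2.51, 1.98 and 1.36 CPM in mock replicates 1 to 5 and 1.16, 4.02, 5.09, 3.84 and 5.25 CPM in zeocin replicates 1 to 5. Zeocin replicate 1 lay inside the mock range and the other 4 lay above it. The log2 difference was 1.18 ± 0.42 (SE, edgeR adjusted p = 0.0600), which misses the threshold. ERF113 (chromosome 5, 4272075 to 4274632, plus strand, 2 exons) had 15.2, 17.2, 20.7, 17.2 and 15.3 CPM in mock and 14.6, 36.0, 35.5, 19.0 and 34.6 CPM after zeocin. Its zeocin libraries were split, with replicates 2, 3 and 5 at about the same high level and replicates 1 and 4 near the mock level. The mean went from 17.1 ± 2.23 to 28.0 ± 10.3 CPM (SD, n = 5), a log2 difference of 0.71 ± 0.25 (edgeR adjusted p = 0.0565). Without zeocin replicate 1 both differences passed, ERF114 at 1.41 (edgeR adjusted p = 0.00479) and ERF113 at 0.87 (adjusted p = 0.00263). ERF113 also passed without zeocin replicate 4 (adjusted p = 0.0317).

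ERF108 (chromosome 1, 16263835 to 16264816, plus strand, 2 exons) lay in the other direction, with 42.9, 23.7, 35.3, 35.5 and 27.4 CPM in mock and 17.9, 18.5, 21.9, 22.9 and 34.9 CPM after zeocin. Zeocin replicate 5 lay among the mock libraries, while replicates 1 to 4 lay below them all. The log2 difference was -0.51 ± 0.20 (edgeR adjusted p = 0.0927), and it passed without zeocin replicate 5 (-0.69, adjusted p = 0.00602) and without mock replicate 2 (adjusted p = 0.0458). DESeq2 called all 3 ERFs (adjusted p = 0.0114 for ERF114, 0.00823 for ERF113 and 0.0370 for ERF108), in the directions given above.

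Of the measured relatives, ERF112 rose after zeocin, with 1.75, 3.32, 3.05, 1.34 and 3.21 CPM in mock and 5.95, 14.6, 12.2, 8.46 and 11.5 CPM in zeocin replicates. The groups did not overlap, and the log2 change was 2.06 ± 0.30 (edgeR adjusted p = 0.000288). ABR1, a repressor in abscisic acid signalling, had 8.85 to 14.3 CPM in mock and 8.06 to 17.9 CPM after zeocin, a log2 difference of 0.26 ± 0.19 (adjusted p = 0.361). All 5 group X ERFs measured, ERF108 included, had their lowest zeocin value in replicate 1. Mock replicate 1 was likewise the lowest mock library for ERF114 and ERF113. It was the next lowest for ABR1 and ERF112, but the highest for ERF108. The labels do not say whether same-numbered libraries are pairs. In zeocin replicate 1 BRCA1 was at 551 CPM and the sum of 9 root markers at 96.6 CPM, both inside the range of the other zeocin libraries. Why zeocin replicate 1 was low for these genes was not tested. The third relative on the list, ERF110, has no value in either table.

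**Figure D1:**
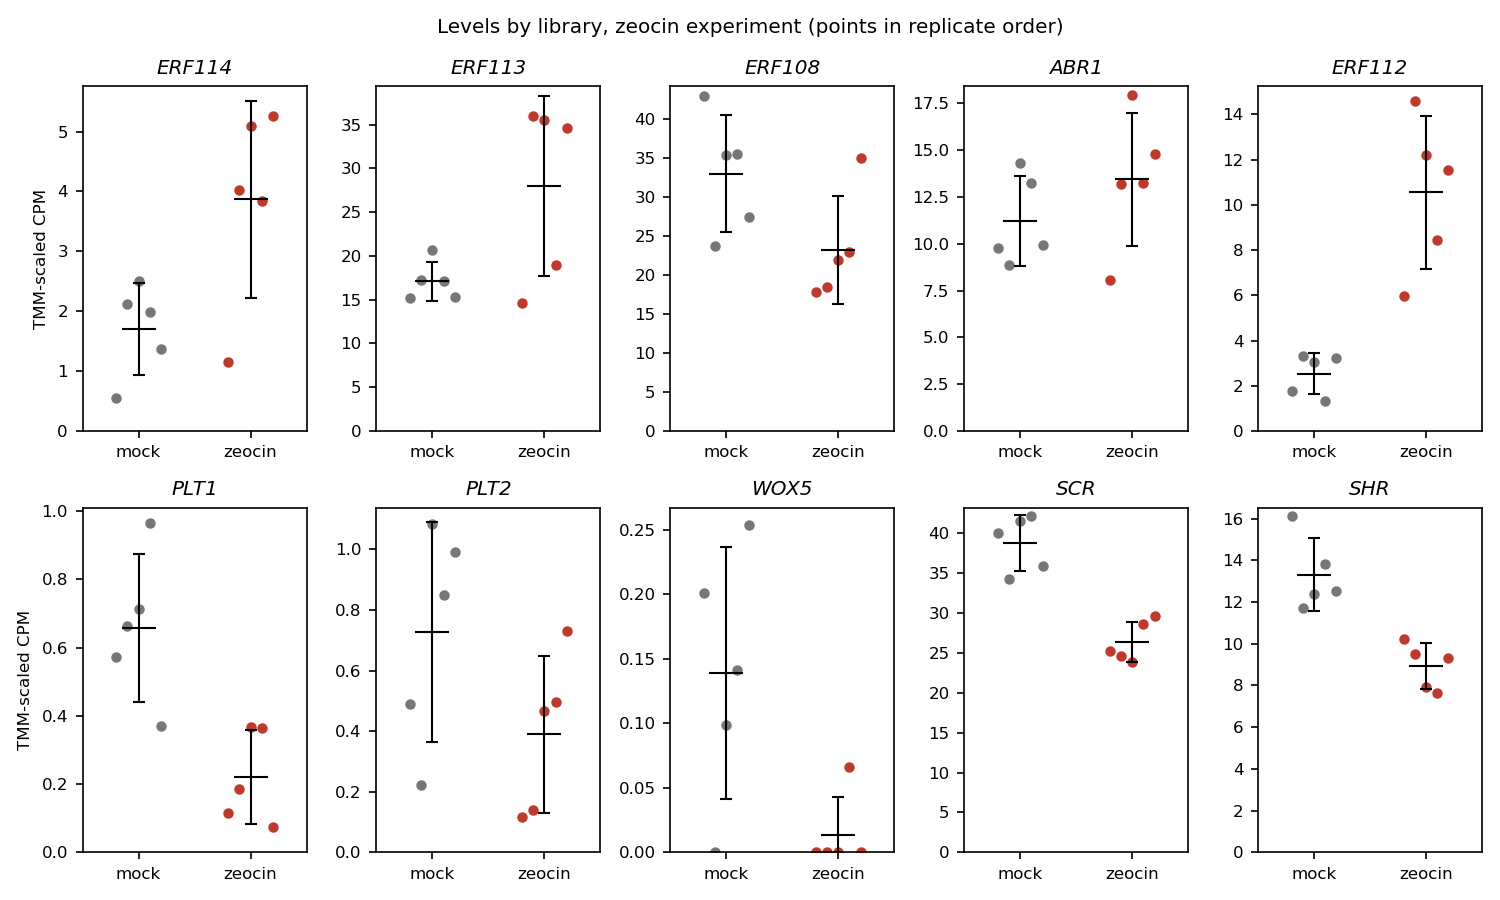
Levels in TMM-scaled CPM (y axis, from 0) in each of the 5 mock (grey) and 5 zeocin (red) libraries, with points in replicate order, the mean as a bar and the SD as whiskers. ERF114 and ERF113 show a low zeocin replicate 1 (1.16 and 14.6 CPM), and mock replicate 1 is their lowest mock library (0.545 and 15.2 CPM). The zeocin libraries of ERF112, PLT1, SCR and SHR do not overlap their mock libraries.

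After UV-C the same ERFs were far above mock. ERF114, ERF113 and ERF108 were 3 of the 5 genes tested, and all 3 rose while SCR and SHR did not pass the test. This is to be read against 33.6% of all 19587 loci tested that rose and 30.9% that fell. ERF114 entered the test only through its UV-C libraries, and PLT2 and WOX5 were under the filter.

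ERF113 had 1.33, 0.604 and 0.837 CPM in UV-C mock replicates 1 to 3 and 25.8, 24.2 and 22.9 CPM in UV-C replicates 1 to 3. The UV-C libraries were close together and far from the mock libraries. The log2 change was 4.70 ± 0.19 (SE, edgeR adjusted p = 3.39e-08), a fold of 26.0. ERF108 had 2.47, 0.748 and 1.84 CPM in mock and 13.1, 7.54 and 10.9 CPM after UV-C. The groups were again apart, and the log2 change was 2.62 ± 0.38 (adjusted p = 0.000685). ERF114 was close to the detection limit, with 2, 2 and 0 counts in mock and 9, 11 and 18 counts after UV-C on a locus that covers 48.5% of its annotated exons. Its pooled ratio was 12.8, with an exact 95% interval of 4.59 to 49.2 that covers counting error only, and its fitted log2 change was 3.54 ± 0.66 (edgeR adjusted p = 0.000830). With 3 libraries a group, the exact permutation test of a single gene cannot go below p = 0.1, the value that ERF114, ERF113 and ERF108 each had.

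Both measured relatives rose after UV-C as well. ABR1 had 0.338, 0.144 and 0.223 CPM in mock and 13.0, 10.6 and 11.2 CPM after UV-C, a log2 change of 5.58 ± 0.22 (edgeR adjusted p = 1.03e-08), and like ERF114 it entered the test only through its UV-C libraries. ERF112 had 2.50, 1.67 and 2.93 CPM in mock and 40.1, 39.6 and 35.3 CPM after UV-C, a change of 4.01 ± 0.16 (adjusted p = 3.14e-08). Thus 5 of 5 measured group X genes were called higher after UV-C, where 33.6% of all loci tested rose. Of the 5, 2 genes, ERF114 and ABR1, had to be high after UV-C to be tested at all. The 5 rises held under DESeq2, upper quartile scaling, the fit without a filter and with each library left out.

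**Figure D2:**
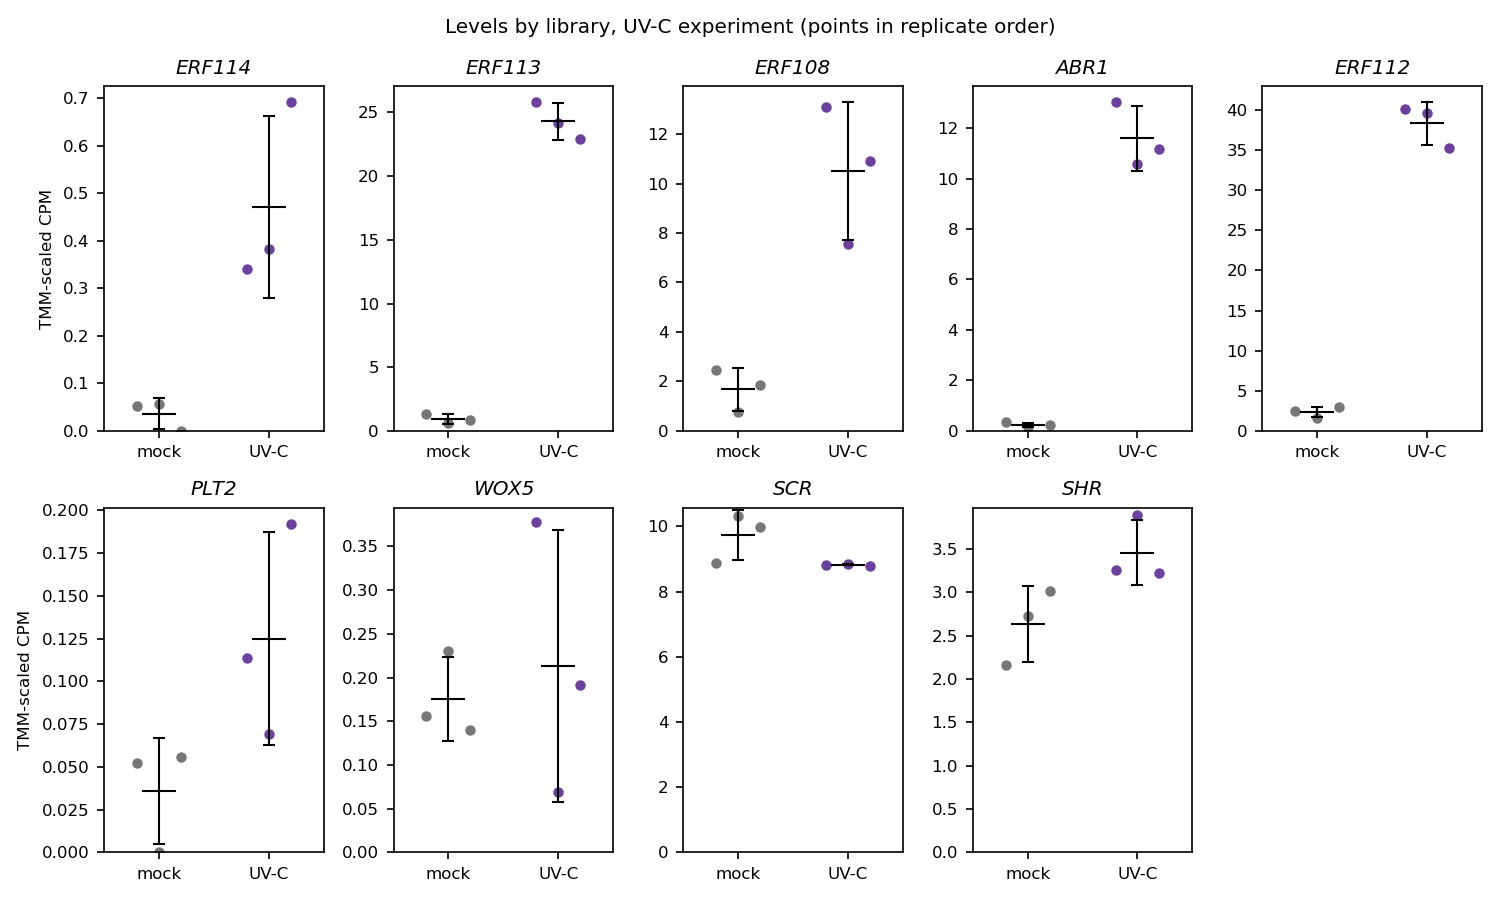
Levels in TMM-scaled CPM (y axis, from 0) in each of the 3 UV-C mock (grey) and 3 UV-C (purple) libraries, with points in replicate order, the mean as a bar and the SD as whiskers. All 5 ERF panels show UV-C libraries above all mock libraries, ERF113 between 22.9 and 25.8 CPM. The SHR panel and, on few counts, the PLT2 panel also show all UV-C libraries above mock, and the SCR and WOX5 panels show no such gap upward.

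The difference between the responses was tested as an interaction in a joint fit over 17182 genes held singly by a locus in both tables, of which 47.2% were called. The zeocin response of ERF113 was lower than its UV-C response by a log2 difference of -3.96 ± 0.42 (SE, edgeR adjusted p = 2.58e-06). For ERF108 the difference was -3.10 ± 0.44 (adjusted p = 4.90e-05), the zeocin value being below mock and the UV-C value above it. ABR1 differed by -5.30 ± 0.39 (adjusted p = 1.88e-08) and ERF112, which rose after both treatments, by -1.92 ± 0.43 (adjusted p = 0.00188). ERF113, ERF108 and ABR1 had means of 17.1, 32.9 and 11.2 CPM in zeocin mock but 0.923, 1.69 and 0.235 CPM in UV-C mock. Their treated means were 28.0, 23.2 and 13.4 CPM after zeocin and 24.3, 10.5 and 11.6 CPM after UV-C. ERF112 had 2.53 and 2.37 CPM in the mock groups and 10.6 and 38.3 CPM after zeocin and UV-C. What part the mock levels have in these differences was not tested. For ERF114 the difference of -2.38 ± 1.14 did not pass (adjusted p = 0.0987), and it passed without zeocin mock replicate 1 (-2.55, adjusted p = 0.0418).

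**Figure D3:**
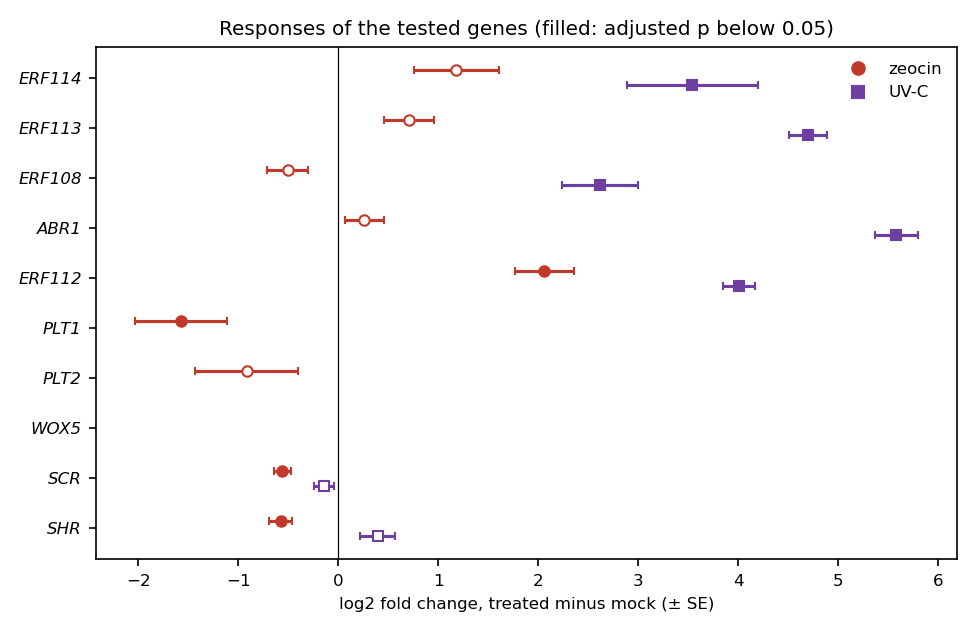
Log2 fold change of treated over mock (x axis) with its SE for each gene tested, zeocin as red circles and UV-C as purple squares, filled where the adjusted p is below 0.05. The UV-C values of the 5 ERFs lie between 2.62 and 5.58, while SCR and SHR lie at -0.56 and -0.58 after zeocin. WOX5, under the filter in both tables, has no point.

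PLT1 and PLT2 were near the detection limit in whole seedlings. PLT1 (chromosome 3, 7302589 to 7303506, plus strand, a locus over 38.8% of the annotated exons) had 20, 21, 29, 41 and 16 counts in zeocin mock replicates and 4, 8, 15, 11 and 3 counts after zeocin. As CPM these were 0.369 to 0.966 in mock and 0.0754 to 0.367 after zeocin, so the groups did not overlap, though their nearest libraries were almost level. PLT1 fell by 1.57 on the log2 scale (SE 0.46, edgeR adjusted p = 0.0197). Without mock replicate 4 the value was -1.38 and missed the threshold (adjusted p = 0.0577). PLT2 (chromosome 1, 18978980 to 18980462, plus strand) had 0.488, 0.221, 1.08, 0.849 and 0.992 CPM in mock and 0.116, 0.140, 0.465, 0.496 and 0.729 CPM after zeocin. Its groups overlapped, and the log2 difference of -0.91 ± 0.52 did not pass (adjusted p = 0.215).

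In the UV-C table PLT2 had 2, 0 and 2 counts in mock and 3, 2 and 5 counts after UV-C, on a locus over 12.7% of its annotated exons. The pooled ratio of 3.36 had an exact 95% interval of 0.968 to 14.7 (exact permutation test, two-sided p = 0.1). That interval includes no change, so neither a rise nor its absence can be read at this depth.

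WOX5, the marker of the quiescent centre, was the rarest of the measured genes in the zeocin experiment. Its locus (chromosome 3, 3527674 to 3528100, plus strand, 30.2% of the annotated exons) had 7, 0, 4, 6 and 11 counts in mock and 0, 0, 0, 2 and 0 counts after zeocin. Zeocin replicate 4 held all the zeocin counts, and mock replicate 2 held none. The pooled ratio was 0.0731 with an exact 95% interval of 0.00844 to 0.290, and a two-sided exact permutation test of mean CPM gave p = 0.0476, where 5 against 5 libraries allow 0.00794 at the smallest. The gene was under the filter of the fit. Fits without that filter gave log2 values of -3.35 with edgeR (adjusted p = 0.0452) and -3.67 with DESeq2 (adjusted p = 0.0333). In the UV-C table the WOX5 locus had 6, 8 and 5 counts in mock and 10, 2 and 5 counts after UV-C, a pooled ratio of 1.201 with an interval of 0.587 to 2.44 (exact permutation test, two-sided p = 0.8).

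SCR and SHR were well measured in both tables. SCR (chromosome 3, 20070238 to 20072752, plus strand, 86.4% of the annotated exons) had 40.0, 34.2, 41.5, 42.1 and 35.9 CPM in zeocin mock and 25.2, 24.6, 23.8, 28.6 and 29.6 CPM after zeocin. Every zeocin library was below every mock library. SCR fell by 0.56 on the log2 scale (SE 0.09, edgeR adjusted p = 0.000315), to a fold of 0.680. SHR (chromosome 4, 17691715 to 17693648, plus strand, 1 exon) had 16.1, 11.7, 12.4, 13.8 and 12.5 CPM in mock and 10.2, 9.53, 7.93, 7.64 and 9.30 CPM after zeocin. Its groups did not overlap either, and SHR fell by 0.58 (SE 0.12, adjusted p = 0.00182), a change of nearly the size seen for SCR. Both falls passed under each alternative fit.

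After UV-C, SCR had 8.87, 10.3 and 9.99 CPM in mock and 8.82, 8.83 and 8.80 CPM in the treated libraries, which were all just under the lowest mock library. The log2 difference was -0.14 ± 0.10 (SE, edgeR adjusted p = 0.219), and with upper quartile scaling it was called as a fall (-0.25, adjusted p = 0.0427). SHR had 2.16, 2.73 and 3.01 CPM in mock and 3.26, 3.89 and 3.23 CPM after UV-C, so its treated libraries were all above mock. Its log2 difference of 0.40 ± 0.17 did not pass (adjusted p = 0.0701). The responses of SHR to zeocin and UV-C differed by -0.94 ± 0.21 (edgeR adjusted p = 0.00136). Those of SCR differed by -0.38 ± 0.14 (adjusted p = 0.0313), and that call was lost when any of 10 of the 16 libraries was left out (adjusted p of 0.0506 to 0.0960). The 10 were zeocin mock replicates 1, 3 and 4, zeocin replicates 2 and 3, UV-C mock replicates 1 and 3, and all 3 UV-C replicates.

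In whole seedlings, fewer cells of a type and less RNA per cell cannot be told apart. Beside the zeocin falls of PLT1, SCR and SHR, 7 of 9 root tissue markers fell too and none rose, where 12.0% of all loci fell, among them the nitrate transporter NRT2.1 (-2.81 ± 0.19, edgeR adjusted p = 2.27e-07), the phosphate transporter PHT1;1 (-1.44 ± 0.10) and the Casparian strip protein CASP1 (-1.20 ± 0.11). WER (0.67 ± 0.33) and GL2 (-0.28 ± 0.14), regulators of root hair pattern, did not pass. The 9 markers summed to 217 to 288 CPM in mock, with a median of 247, and to 85.0 to 108 CPM after zeocin, with a median of 95.2. Most of these sums is PHT1;1, with means of 142 CPM in mock and 52.4 CPM after zeocin. The median log2 change of the 9 markers was -0.98, and none of the 9 was at 0 in any library of either table. No marker of the 4 measured leaf genes was called, and their sum of 15771 to 21372 CPM in mock overlapped the 14315 to 18671 CPM after zeocin. The part of the root markers in the falls was not tested.

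In the UV-C experiment the root markers summed to 36.5 to 73.3 CPM in mock and 18.4 to 37.1 CPM after UV-C, and the ranges overlapped slightly. Of the 9, 4 fell, where 30.9% of all loci fell, and WER rose (0.99 ± 0.32, edgeR adjusted p = 0.0200). The median of the root marker sum was 28.8 CPM after UV-C against 58.3 CPM in mock. In the same UV-C libraries the ERFs were above mock, and so was SHR, though SHR was not called. Of the 4 leaf markers 3 fell and CA1 rose (0.32 ± 0.10, adjusted p = 0.0162), and they summed to 12251 to 12939 CPM against 17745 to 19262 CPM in mock. Of the shoot meristem markers WUS and CLV3 have no value in either table. The 3 measured ones summed to 18.2 to 22.6 CPM after UV-C against 50.7 to 59.4 CPM in mock, and to 47.1 to 54.9 CPM after zeocin against 63.1 to 80.6 CPM. Most of these sums is CLV1, which alone of the 3 fell in either experiment, while KNAT1 rose after UV-C (0.77 ± 0.27) and STM was not called, though upper quartile scaling after UV-C called STM lower (adjusted p = 0.0443) and lost KNAT1 (adjusted p = 0.0553). What part any of these sums has in the ERF or SHR values was not tested.

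**Figure D4:**
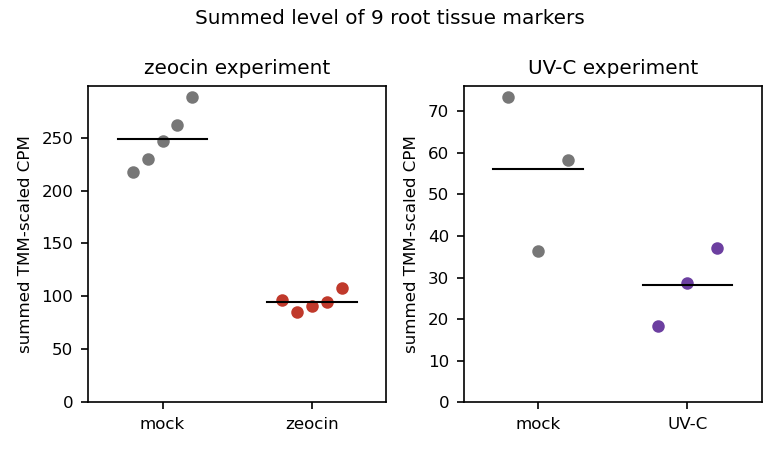
Summed level of 9 root tissue markers in TMM-scaled CPM (y axis, from 0) in each library, with the group mean as a bar; mock libraries are grey, zeocin red and UV-C purple. The zeocin libraries lie between 85.0 and 108 CPM, all below the mock libraries, and the UV-C range of 18.4 to 37.1 CPM overlaps its mock range.

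Levels of different genes were compared per kilobase of locus, within a table. In the zeocin mock libraries ERF108 was highest at 37.2 ± 8.48 CPM per kb (SD, n = 5), followed by SCR at 16.1 ± 1.47 and ERF113 at 15.3 ± 1.99, whose ranges overlapped. SHR came next at 6.88 ± 0.901 CPM per kb, and ERF114, PLT1, PLT2 and WOX5 followed between 1.45 and 0.437 CPM per kb, with each neighbour overlapping the next. After zeocin ERF113 (25.0 ± 9.20 CPM per kb) overlapped ERF108 (26.2 ± 7.78) and lay above SCR (11.0 ± 1.06). In the UV-C mock libraries SCR led at 3.91 ± 0.306 CPM per kb (SD, n = 3), ahead of ERF108 at 1.90 ± 0.983, SHR at 1.27 ± 0.209 and ERF113 at 0.810 ± 0.324, these last 3 overlapping in turn. After UV-C ERF113 was highest at 21.3 ± 1.27 CPM per kb and ERF108 second at 11.9 ± 3.15, while SCR stood at 3.54 ± 0.00684 and SHR at 1.66 ± 0.181, and none of these 4 overlapped its neighbour. The loci were assembled separately and differ in extent between the tables for some genes, so this ranking was made within each table only.

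The partners and targets of ERF115 rose in 3 of 9 cases after zeocin and in 5 of 8 after UV-C, where 15.0% and 33.6% of all loci rose. This list has a median log2 change of 0.17 after zeocin and 0.72 after UV-C. The GRAS factor PAT1, the partner of ERF115, rose by 0.27 ± 0.09 after zeocin (edgeR adjusted p = 0.0423, and 0.0808 with upper quartile scaling) and by 1.12 ± 0.07 after UV-C. MP, an auxin response factor that acts with ERF115 in regeneration, rose by 0.39 ± 0.10 and 0.92 ± 0.17, and PSKR1, a receptor of the peptide phytosulfokine, by 0.64 ± 0.19 and 0.93 ± 0.12. PSK2, a phytosulfokine precursor, had 0.286, 0.0863 and 0.251 CPM in UV-C mock and 3.14, 1.70 and 2.46 CPM after UV-C, a change of 3.51 ± 0.39 (adjusted p = 2.10e-05) in a gene that entered the test only through its UV-C libraries. After zeocin PSK2 had a log2 difference of 0.08 ± 0.25, and the responses differed by -3.40 ± 0.53 (adjusted p = 5.32e-05). PSK5, the precursor gene that ERF115 activates, did not pass in either experiment (-0.18 ± 0.16 and 0.29 ± 0.25). WIND1, a factor of wound-induced dedifferentiation, fell by 0.26 after zeocin (SE 0.09, adjusted p = 0.0335) and had 0.12 ± 0.09 after UV-C.

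Of 18 wound signal, callus and regeneration genes, 11 were tested after zeocin, of which 1 rose and 4 fell, and 5 after UV-C, of which 3 rose and none fell. Over all loci 15.0% rose and 12.0% fell after zeocin, and 33.6% rose and 30.9% fell after UV-C, so 1 rise of 11 is near the background. The list's medians were -0.50 and 0.85. ASA1, the first enzyme of tryptophan synthesis and a target of ERF109, had 109 to 130 CPM in zeocin mock and 186, 231, 230, 249 and 237 CPM after zeocin, a rise of 0.98 ± 0.09 (edgeR adjusted p = 2.15e-06). In the UV-C table it had 29.8, 29.1 and 27.7 CPM in mock and 243, 224 and 231 CPM after UV-C, a rise of 3.01 ± 0.07 (adjusted p = 6.71e-10), and the responses differed by -2.00 ± 0.13 (adjusted p = 2.68e-09). YUC2, another target of ERF109 in auxin synthesis, fell by 1.40 after zeocin (SE 0.38) and was not tested after UV-C. Its relative YUC8 fell by 0.87 after zeocin (SE 0.20) and rose by 0.85 ± 0.23 after UV-C. LBD16, which acts in lateral root founding and callus formation, fell by 1.83 after zeocin (SE 0.32, adjusted p = 0.000626). The NAC factor ANAC096 had a log2 difference of 0.76 ± 0.32 after zeocin (adjusted p = 0.0942) and rose by 3.03 ± 0.42 after UV-C, having entered that test only through the treated libraries. LBD16 and YUC2 entered the zeocin test only through the mock libraries, where they were high.

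The 5 relatives of PLT1 and PLT2 fell in 2 cases after zeocin and rose in none, and after UV-C they rose in 4 cases and fell in 1. Over all loci 12.0% fell after zeocin, and 33.6% rose and 30.9% fell after UV-C. Their medians were -0.50 and 2.11. PLT3 (AT5G10510), which acts with PLT5 and PLT7 in lateral organ founding and shoot regeneration, had 8.98 to 11.1 CPM in zeocin mock and 3.39 to 5.53 CPM after zeocin, and it fell by 1.22 (SE 0.13, edgeR adjusted p = 7.96e-06). In the UV-C table, on a locus over 15.5% of its annotated exons, PLT3 had 0.572, 0.230 and 0.446 CPM in mock and 2.16, 1.49 and 1.84 CPM after UV-C, and it rose by 2.11 ± 0.32 (adjusted p = 0.000217). PLT7 had 4, 6 and 7 counts in UV-C mock and 48, 42 and 47 counts after UV-C, a rise of 3.40 ± 0.32. After zeocin its log2 difference was 0.01 ± 0.25, on a locus that shares only 258 bases of span with the UV-C locus, so different stretches of the gene were measured. BBM, an inducer of embryo fate, had 1, 2 and 4 counts in UV-C mock and 18, 11 and 12 after it, a rise of 2.90 ± 0.53. PLT3, PLT7 and BBM, 3 of the 4 that rose, entered the UV-C test only through the treated libraries, so the count and median after UV-C are descriptions of genes that had to be high there. PLT5 rose by 0.83 ± 0.33 after UV-C (adjusted p = 0.0461), which upper quartile scaling did not keep (adjusted p = 0.0764). ANT, which promotes organ growth, fell in both experiments, by 0.52 (SE 0.10) and 1.01 (SE 0.25).

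Among 22 other genes of the root stem cell niche and its inputs, 6 of 19 tested fell after zeocin and none rose, where 12.0% of all loci fell, with a median of -0.33. BRAVO, a repressor of division in the quiescent centre, had 1.67 to 2.75 CPM in mock and 0.629 to 1.03 CPM after zeocin, and it fell by 1.41 (SE 0.23, edgeR adjusted p = 0.000333). JKD, a zinc finger partner of SCR and SHR, fell by 0.58 (SE 0.10), and SCZ, a heat shock factor of root stem cell patterning, by 0.50 (SE 0.12). After UV-C 7 of 16 tested rose and 4 fell, with a median of 0.28, and these counts are near the 33.6% and 30.9% of all loci. With upper quartile scaling, which moved the median of all UV-C loci by -0.107, 4 rose and 4 fell. RITF1, a target of the root growth factor peptides, rose by 2.66 ± 0.38 (tested only because its UV-C libraries passed the filter) and SCL3, a target of SCR and SHR, by 1.35 ± 0.11, while the receptor kinase ACR4 fell by 1.13 (SE 0.18), ARF16 by 1.04 (SE 0.17) and JKD by 0.61 (SE 0.18). SCL3 moved in opposite directions, having fallen by 0.42 (SE 0.10) after zeocin, and the difference was -1.73 ± 0.16.

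The PIN proteins export auxin and build its maximum in the root tip. After zeocin PIN3 (-0.98 ± 0.24, edgeR adjusted p = 0.0122) and PIN2 (-0.42 ± 0.12, adjusted p = 0.0162) fell, and PIN4 and PIN7 had -0.56 ± 0.22 and -0.57 ± 0.23 without passing. After UV-C, PIN7 (-1.41 ± 0.10) and PIN4 (-1.22 ± 0.10) fell and PIN2 rose (1.99 ± 0.42, adjusted p = 0.00436), while PIN3 had -0.21 ± 0.14 and did not pass.

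**Figure D5:**
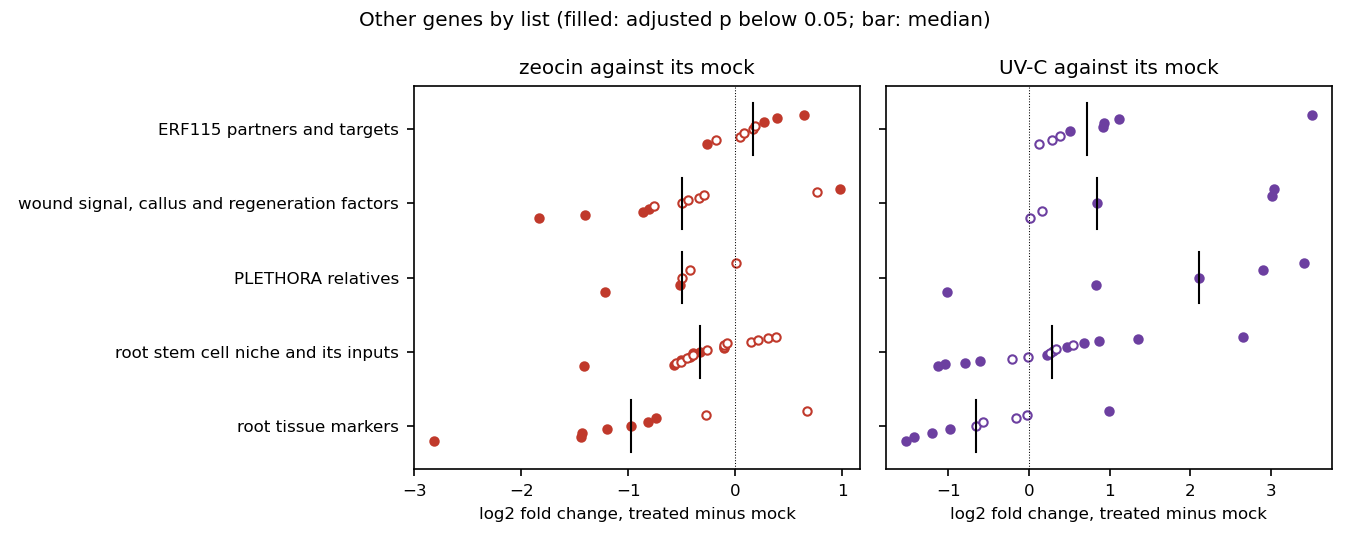
Log2 fold change of treated over mock (x axis) of each gene tested in 5 other lists, zeocin at left and UV-C at right, filled where the adjusted p is below 0.05, with the list's median as a vertical bar. The median of the PLETHORA relatives lies at -0.50 after zeocin and 2.11 after UV-C, and that of the root tissue markers at -0.98 and -0.66. Of the PLETHORA relatives, PLT3, PLT7 and BBM entered the UV-C test only through the treated libraries, so their UV-C median is a description.

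SCR was the gene of the set for which loci of the most similar pattern were sought, by Pearson's r of log2 CPM over all libraries of a table. Over the 10 zeocin and mock libraries the closest were AT1G77330 (r = 0.986), AT5G62580 (0.978), AT5G07030 (0.978), AT1G67590 (0.973) and AT1G72810 (0.972), and each of these 5 fell after zeocin. Over the 6 UV-C and mock libraries they were CYCD3;2 (0.995), TOR1 (0.980), MOR1 (0.978), AT2G23360 (0.976) and AT5G43020 (0.975). These values are descriptions over few libraries that share treatment and mock groups, and no locus was on both lists.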

How the data were processed

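Per the labels' protocols, TRI reagent RNA of the 16 samples was cleared of ribosomal RNA before directional library construction. The values are raw fragment counts of assembled loci, which the authors deposited in 1 table for each experiment. Trim Galore 0.11.8, STAR 2.7.1a, StringTie 2.1.5, Subread 2.0.1 and TAIR10 are named in the submitters' processing notes. Counting used featureCounts over exons with the strand, per the file headers. Each locus was assigned to TAIR10 genes by same-strand exon overlap of at least 50% of gene or locus, the longest overlap standing for a gene. Of locus introns 97.6% (zeocin) and 99.2% (UV-C) matched annotated introns. Columns of per-sample values left unmapped: 0.

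Each table was fitted alone with edgeR 4.0.16 (R 4.3.3): TMM factors, the default filter (about 0.255 CPM in 5 zeocin or 0.322 CPM in 3 UV-C libraries), robust quasi-likelihood, two-sided, Benjamini-Hochberg over all loci. SEs come from the test statistic. The script was tested on simulated data. Alternatives were DESeq2 1.42.0, upper quartile factors, no filter, the replicate number as a block, 80% overlap, loci summed per gene, and each library left out. Genes under the filter keep counts, an exact interval and an exact permutation test. The members and the 10 other lists (86 genes) were chosen with earlier results of these data known, so no p is adjusted over a list. All members are named, and of each list the called genes with the largest changes, up to 3 a direction, plus genes tied to a member by role. Proteins were not compared here, and 1 gene of the lists is not reported here.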

Additional observations from a re-analysis of the deposited data

Results flagged for a closer look

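In the zeocin libraries WOX5 was at 0 in 4 and at 0.0661 CPM in replicate 4, which sets that library apart from the other 4; the value rests on 2 counts. Of 20 gene and group combinations examined for such a library this was the only one, and chance marks about 1 in 20.

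For 6 of the 8 ERF and stem cell genes in the joint fit the response to zeocin differed from that to UV-C by edgeR's interaction test with adjustment over all genes, where 47.2% of the 17182 genes tested were called. The log2 differences, zeocin minus UV-C, were -3.96 for ERF113, -3.10 for ERF108, -5.30 for ABR1, -1.92 for ERF112, -0.94 for SHR and -0.38 for SCR. The SCR difference is the smallest of them and was lost with any of 10 libraries left out. All 6 are negative, and agent, exposure time and experiment cannot be told apart in them. Mock levels of ERF113, ERF108 and ABR1 were also far higher in the zeocin experiment than in the UV-C experiment. Those of SCR (38.7 against 9.73 CPM) and SHR (13.3 against 2.64 CPM) were higher there too, while ERF112 was at 2.53 against 2.37 CPM.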

How the results depend on the processing

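The rises of ERF114, ERF113 and ERF108 after UV-C and the falls of SCR and SHR after zeocin kept direction and call under every alternative run for them. The number of the 10 genes called after zeocin was 3, and it was 7 with DESeq2 (2 higher, 5 lower), which adds ERF114, ERF113, ERF108 and WOX5. With each library left out in turn it ranged from 2 to 5. It was 5 without zeocin replicate 1, where ERF114 and ERF113 passed, and 2 without zeocin mock replicate 4, where PLT1 did not, and the cause was not tested. Of 380 comparisons of single values with their alternatives, 355 kept their call, 14 gained one, 11 lost one and none reversed. The sum of a gene's loci changed no call of the 10 genes. Their loci already met an overlap of 80% of gene or locus, so that setting re-read the same values and could change none.

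The labels do not say whether replicate numbers pair the samples, and the correlations of the libraries do not settle it. Same-numbered mock and treated libraries had correlations of -0.0957 to 0.435 (zeocin) and -0.300 to 0.155 (UV-C). Zeocin mock replicates 1 and 3 and UV-C mock replicate 3 correlated best with their own number, and the other mock libraries did not. With the replicate block 5 of the 10 genes were called after zeocin, ERF114 (adjusted p = 0.000592) and ERF113 (adjusted p = 0.0420) in addition, and in the joint fit ERF114 and PLT2 (adjusted p = 0.0207 and 0.0349) in addition, the loci of PLT2 in the tables sharing 0 bases. Loci called were 5245 without and 5675 with the block for zeocin, 12623 and 12128 for UV-C, and 8110 and 8064 for the interaction.

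Depth limits WOX5, PLT1, PLT2 and, in UV-C mock, ERF114, each resting on few counts of a locus that for most covers under 50% of the gene's exons.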

Other observations

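KNAT1, a regulator of shoot meristem and stem patterning, rose by 0.77 ± 0.27 after UV-C (edgeR adjusted p = 0.0304, and 0.0553 with upper quartile scaling), while CLV1, a receptor kinase that limits the shoot stem cell pool, fell by 1.57 (SE 0.09, adjusted p = 2.03e-07). After zeocin CLV1 fell by 0.63 (SE 0.10, adjusted p = 0.000332) and KNAT1 had -0.07 ± 0.15. ANAC071, a NAC factor of wounded stems named here after its values were seen, was under the filter in the zeocin table, with 2, 0, 1, 4 and 1 counts in mock and 11, 6, 8, 10 and 13 counts after zeocin, every zeocin library above every mock library. No locus of the UV-C table was assigned to it.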
